A study of Mus musculus with 20 samples.

Results

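The collagen genes were followed across every condition of an RNA-seq study of NMuMG cells, an epithelial line from normal mouse mammary gland. The members were all protein-coding genes whose symbol names a collagen alpha chain (the letters Col, a type number, the letter a and a chain number), which gave 44 genes of the 54986 in the expression table. The rule for the 44 genes uses their names alone and no measured value, although the topic itself was picked with earlier results of these data known. Levels are given in CPM, the reads of a gene scaled to the read total of its library.

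The study held 20 libraries in 10 groups of 2. Untreated NMuMG cells were compared with NMuMG cells treated with TGFβ, for several days according to the study, and with E1KD cells, which are NMuMG cells carrying an shRNA against hnRNP E1, the RNA-binding protein encoded by Pcbp1. M1P cells are E1KD cells labelled as a primary tumor. L1P cells are E1KD cells labelled as directed on the lungs, which the study describes as cells of lung metastases. According to the methods of the study both lines were grown out of NOD/SCID mice that had received E1KD cells in the mammary fat pad and were selected for a puromycin resistance gene, so that these libraries measure recovered cultures and not whole tumors. The other 5 groups were NMuMG cells with an empty expression vector (Empty vector), clones 12 and 16 of NMuMG cells overexpressing the long noncoding RNA Platr18, and E1KD cells that carried either a scrambled control hairpin (E1KD SCR) or a hairpin directed at Platr18 (E1KD Platr18 KD). Each Platr18 overexpression group is a single clone, and no label ties the libraries of a group to separate cultures or animals, so p-values measure the spread between these libraries, which may be technical.

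Collagens are triple helices of 3 alpha chains, and in some types the chains come from different genes, called partner chains here. Secretion of the chains was not measured. Fibrillar collagens give connective tissue its tensile strength, type IV collagens form the sheet of basement membranes under epithelia, type VI collagens form beaded filaments next to that sheet, type VII anchors it to the stroma, FACIT collagens decorate fibrils, and the multiplexins Col15a1 and Col18a1 carry heparan or chondroitin sulfate chains in basement membrane zones. Collagen production by epithelial cells is known to change during epithelial-mesenchymal transition, the loss of epithelial features that TGFβ can induce.

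The libraries were of 2 kinds that were never tested against each other. In the first kind (NMuMG, TGFβ-treated, E1KD, M1P and L1P) the mitochondrial ribosomal RNA mt-Rnr2 took 333 to 492 CPM, and in the second kind (the other 5 groups) it took 113874 to 165149 CPM. The value of 1 read, read from the steps of the low values, corresponded to 50.8 to 60.0 M reads per library in the first kind and 63.0 to 147 M in the second, so 3 reads were worth 0.04998 to 0.0591 CPM and 0.0204 to 0.0477 CPM, respectively. E1KD replicate 1 stood apart: its median gene was 0.29 higher on the log2 scale than in replicate 2, and its values summed to 728651 CPM against 567414 CPM. The targeted genes followed the labels: Pcbp1 was 287 and 312 CPM in NMuMG against 16.6 and 14.2 in E1KD, and 32.3 CPM in both Empty vector libraries against 3.28 and 3.46 CPM in E1KD SCR. Platr18, listed under its symbol Lncenc1, was 813 to 3096 CPM in the overexpressing clones against 3.06 and 3.69 CPM with the empty vector, and 0.136 and 0.170 CPM after its silencing against 2.92 and 3.10 CPM in E1KD SCR. Of the markers of the labelled cell type, Krt8 (669.6 to 1683 CPM) and Cdh1 (70.1 to 237 CPM) were present in every library, as was Krt18 (546 to 2385 CPM), but 4 of the 8 epithelial genes listed stayed under 1 CPM throughout: Epcam (at most 0.0168 CPM), Krt5 (0.252), Esrp1 (0.297) and Krt14 (0.894). Cldn4 was 18.5 and 20.2 CPM after TGFβ and at most 0.151 CPM elsewhere. Of 8 fibroblast markers, Dcn, Lum, Thy1, Dpt, Pi16 and Fap stayed under 1 CPM in all libraries, whereas Pdgfrb was at most 12.3 CPM, after TGFβ, and Pdgfra at most 1.52 CPM, in clone 16. The 8 genes summed to 0.549 to 0.566 CPM in NMuMG, 12.8 to 13.2 CPM after TGFβ, 0.186 to 0.394 CPM in E1KD, 0.0183 to 0.0400 CPM in M1P and L1P, and 1.46 to 1.55 CPM in clone 16. Of 3 Schwann cell genes the sum was 0.815 to 0.943 CPM in NMuMG and 9.73 to 9.75 CPM after TGFβ, of which Sox10, listed at 0 in both NMuMG libraries, made up 8.53 and 8.45 CPM. The sum of 5 immune genes was 1.85 to 2.72 CPM in E1KD, 5.57 to 6.14 CPM in M1P and 6.44 to 6.85 CPM in L1P. In M1P, Lyz2 made up 3.23 and 2.87 CPM and Cd68 2.79 and 2.57 CPM. Over all libraries Cd68 was 1.06 to 3.39 CPM, while Ptprc did not exceed 0.374 CPM in any library. The part of these markers in the collagen differences was not tested. The RNA was taken from bulk cultures, in which more cells that make a collagen and more collagen RNA per cell cannot be told apart.

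Some collagen genes lie beside a partner chain and share the stretch of DNA in which transcription begins. On chromosome 1, Col4a4 (chr1:82448423-82586849, minus strand) and Col4a3 (chr1:82586921-82722059, plus strand) start back to back with 71 bases between them. The genes Col4a1 (chr8:11198423-11312826, minus strand) and Col4a2 (chr8:11312805-11449287, plus strand) overlap by 22 bases at their starts, and Col4a6 and Col4a5 on the X chromosome are separated by 1308 bases. Col6a2 and Col6a1 lie on the same strand of chromosome 10, 85161 bases apart. Coordinates are those of the GRCm38 build. The stretches below are shown because the results turn on these pairs and on Col5a1; they come from RefSeq (GRCm38.p6), read 5′ to 3′ on the strand named. The stretch of the Col4a4 and Col4a3 pair is everything between the genes, that of the Col4a1 and Col4a2 pair is what they share, and the others end at the last base before the gene. Capitals mark CAGAC or its reverse GTCTG, the letters that Smad proteins of the TGFβ pathway bind, and GGGCGG or its reverse CCGCCC, known as a GC box.
Col4a4 and Col4a3, chr1:82586850-82586920, minus strand: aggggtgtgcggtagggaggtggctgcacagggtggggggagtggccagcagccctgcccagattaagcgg
Col4a1 and Col4a2, chr8:11312805-11312826, plus strand: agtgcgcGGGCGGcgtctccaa
Col6a1, chr10:76726169-76726294, minus strand: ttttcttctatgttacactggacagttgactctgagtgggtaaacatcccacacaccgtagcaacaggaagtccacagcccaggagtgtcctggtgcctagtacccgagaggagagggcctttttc
Col6a2, chr10:76623631-76623880, minus strand: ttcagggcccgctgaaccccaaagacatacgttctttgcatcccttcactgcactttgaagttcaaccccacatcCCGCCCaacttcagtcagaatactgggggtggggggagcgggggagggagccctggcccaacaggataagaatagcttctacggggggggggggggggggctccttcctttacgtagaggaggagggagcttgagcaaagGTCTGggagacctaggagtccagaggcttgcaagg
Col5a1, chr2:27886175-27886424, plus strand: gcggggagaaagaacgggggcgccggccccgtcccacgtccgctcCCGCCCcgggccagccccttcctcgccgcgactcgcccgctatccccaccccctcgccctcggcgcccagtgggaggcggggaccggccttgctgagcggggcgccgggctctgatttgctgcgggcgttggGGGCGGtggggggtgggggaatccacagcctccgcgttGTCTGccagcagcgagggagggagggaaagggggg

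Promoter sequence was at hand for 35 of the 44 collagen genes and for 12 of the 15 tested below; Col1a1, Col4a3 and Col12a1 had no entry. In the 250 bases before the start, CAGAC or GTCTG stood in 6 of those 12 genes (Col4a2, Col5a1, Col6a2, Col7a1, Col18a1 and Col27a1), against 45.8% of all 27025 genes with an entry. GGGCGG or CCGCCC stood in 8 of 12, against 35.4% of all genes. CACCTG or CAGGTG, the E-box that the repressors Snail and Zeb bind, stood in 2 of 12 (Col4a4 and Col16a1), against 19.4% of all genes. The 71 bases between Col4a4 and Col4a3 held none of these motifs, which stood in 15.5%, 23.3% and 5.47%, respectively, of equally long stretches before the start of all genes. These are letter matches only. None of the motifs overlapped another in the stretches shown.

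Few of the collagen genes were expressed. Only 15 of 44 reached 1 CPM in at least 2 libraries and were tested: 4 fibrillar genes of 11 (Col1a1, Col5a1, Col11a2 and Col27a1), 4 type IV genes of 6 (Col4a1 to Col4a4), 2 type VI genes of 6 (Col6a1 and Col6a2), Col7a1, 2 FACIT genes of 9 (Col12a1 and Col16a1) and both multiplexins (Col15a1 and Col18a1). The other 29 stayed under 1 CPM in every library, with Col9a3 (0.863 CPM in L1P) and Col20a1 (0.813 CPM in clone 16) the highest of them, and 16 of the 29 never had more than 3 reads. Among these 29 were the classical fibroblast chains Col1a2 (at most 0.0583 CPM), Col3a1 (at most 0.0592 CPM) and Col5a2 (at most 0.236 CPM), the type IV chains Col4a5 and Col4a6, the type VI chains Col6a3 to Col6a6, and Col17a1, the hemidesmosomal collagen of basal keratinocytes (at most 0.367 CPM). The remaining low genes were Col2a1, Col5a3, Col11a1, Col24a1, Col8a1, Col8a2, Col10a1, Col9a1, Col9a2, Col14a1, Col19a1, Col22a1, Col13a1, Col23a1, Col25a1, Col26a1 and Col28a1, each at most 0.461 CPM, with Col13a1 listed at 0 throughout. Of the tested genes, Col1a1, Col4a3 and Col4a4 passed through the TGFβ-treated and E1KD libraries alone. Col5a1, Col6a2, Col11a2 and Col12a1 also stayed under 1 CPM in every NMuMG and Empty vector library and passed through other groups. By the rule used below, none of these genes could be called lower than NMuMG or Empty vector. Counts over the tested genes are therefore not counts over all 44.

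**Figure D1:**
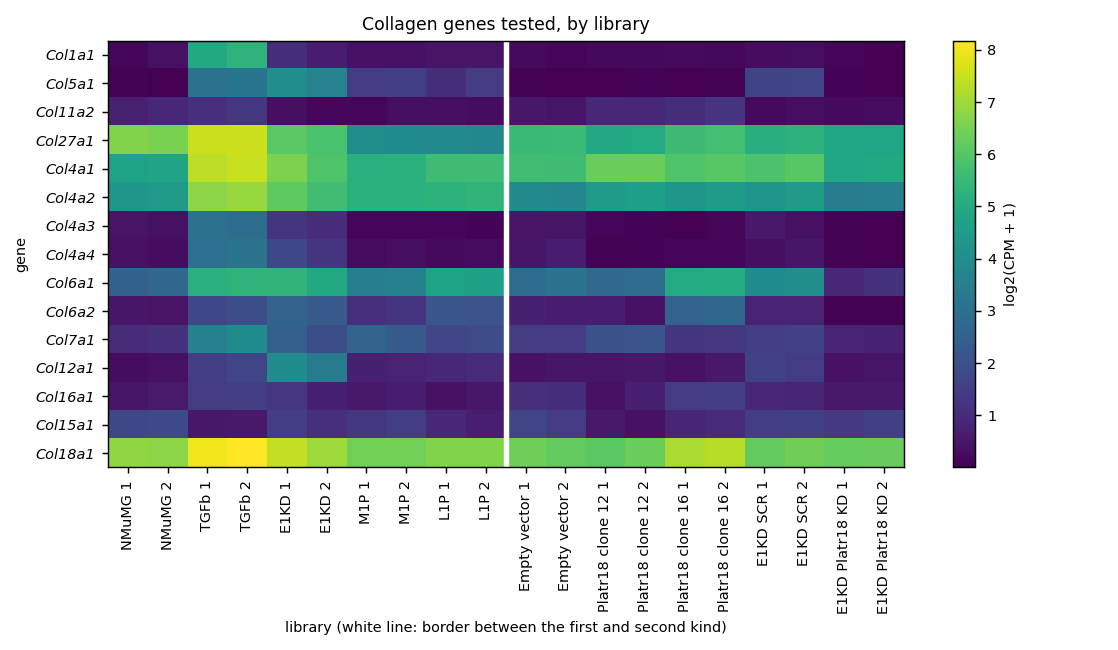
Level of the 15 tested collagen genes (rows, grouped by class) in each of the 20 libraries (columns), as log2(CPM + 1) on a color scale; the white line separates the 2 kinds of library. Col18a1, Col27a1, Col4a1 and Col4a2 alone reached 1 CPM in every library, while Col1a1 was bright in the 2 TGFβ-treated libraries, at 30.1 and 38.4 CPM.

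Per length of exon, Col18a1, the source of endostatin, was the highest collagen in 9 of the 10 groups. In NMuMG it stood at 15.5 ± 0.361 CPM per kb (SD, n = 2), ahead of Col27a1 at 7.23 ± 0.361, Col4a1 at 3.49 ± 0.0176, Col4a2 at 2.94 ± 0.102 and Col6a1 at 1.18 ± 0.10004 CPM per kb, and none of these neighbors overlapped between libraries. After TGFβ the order per length was Col18a1 (38.7 ± 3.17 CPM per kb), Col4a1 (23.1 ± 1.45), Col4a2 (17.04 ± 1.45), Col27a1 (14.2 ± 0.354), Col6a1 (8.49 ± 0.489) and Col1a1 (5.22 ± 0.895). In clone 12, Col4a1 (10.5 ± 0.165 CPM per kb) and Col18a1 (10.4 ± 1.19 CPM per kb) did not differ beyond their spread. All 44 genes together took 264 and 256 CPM in NMuMG, 816 and 901 CPM after TGFβ, 489.8 and 354 in E1KD, 195 and 197 in M1P, and 236 CPM in both L1P libraries. In the second kind of library the sum was 204 and 195 CPM with the empty vector, 209 and 227 CPM in clone 12, 308 and 339 CPM in clone 16, 209.5 and 235 CPM in E1KD SCR, and 145 and 150.1 CPM after Platr18 silencing. The TGFβ-treated libraries therefore had the highest sums of their kind, the clone 16 libraries had the highest of theirs, and the Platr18-silenced libraries the lowest.

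A gene was called different at an unadjusted p under 0.001 and a difference of at least 1 on the log2(CPM + 1) scale, in 1 limma fit to the 17106 genes tested. For each gene the spread was pooled over all 10 groups, so its standard errors are not those of the compared groups alone. Adding 1 to each CPM makes the log2 differences of low genes smaller than their ratios, and ratios of mean CPM are given beside most of them. In the first kind of library, 8 of the 15 tested collagen genes were called higher and 0 lower in E1KD than in NMuMG, where 9.44% of all tested genes were called, 6.44% higher and 2.99% lower. After TGFβ, 11 were called higher and 1 lower, against 5.85% and 7.66% of all tested genes, or 13.5% in either direction. Both comparisons use the same NMuMG libraries. Between E1KD and TGFβ-treated cells 1 collagen gene was higher in E1KD and 6 were higher after TGFβ, against 17.2% and 6.17% of all tested genes, or 23.3% in either direction. In M1P 8 were called lower than in E1KD and 0 higher, against 2.43% and 1.16% of all tested genes (3.59% together), and in L1P 1 was called higher than in M1P and 0 lower, against 0.742% and 0.468% (1.21% together). The median log2 difference of the 15 tested genes was 1.16 for E1KD against NMuMG (0.17 over all tested genes), 2.47 for TGFβ against NMuMG (-0.08 over all) and -1.02 for M1P against E1KD (-0.17 over all). Without E1KD replicate 1, 6 collagen genes were called for E1KD against NMuMG, 10 for E1KD against TGFβ and 5 for M1P against E1KD. Scaling the libraries by the median of gene ratios took the median of all genes in E1KD against NMuMG to 0.015 and the share of higher genes among all calls from 68.3% to 51.2%, and left 7 of the 8 collagen calls. By the same scaling the higher share went from 43.3% to 53.5% after TGFβ, from 73.6% to 50.3% for E1KD against TGFβ and from 32.2% to 51.6% for M1P against E1KD, with 14, 10 and 6 collagen genes called. Fitting the compared groups alone, Col4a1, Col4a2, Col4a4 and Col7a1 lost their call for E1KD against NMuMG, Col4a1, Col4a4, Col7a1 and Col12a1 for E1KD against TGFβ, and Col4a1, Col4a4, Col6a1 and Col6a2 for M1P against E1KD. Adding 0.1 in place of 1 gave 10 collagen genes higher and 1 lower in E1KD than in NMuMG, and an adjusted p under 0.05 without a fold limit gave 12 higher and 3 lower. The shares of all tested genes under these other rules are not given here. In all, 13 tested genes were called in at least 1 of the 9 comparisons, and Col11a2 and Col16a1 in none.

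**Figure D2:**
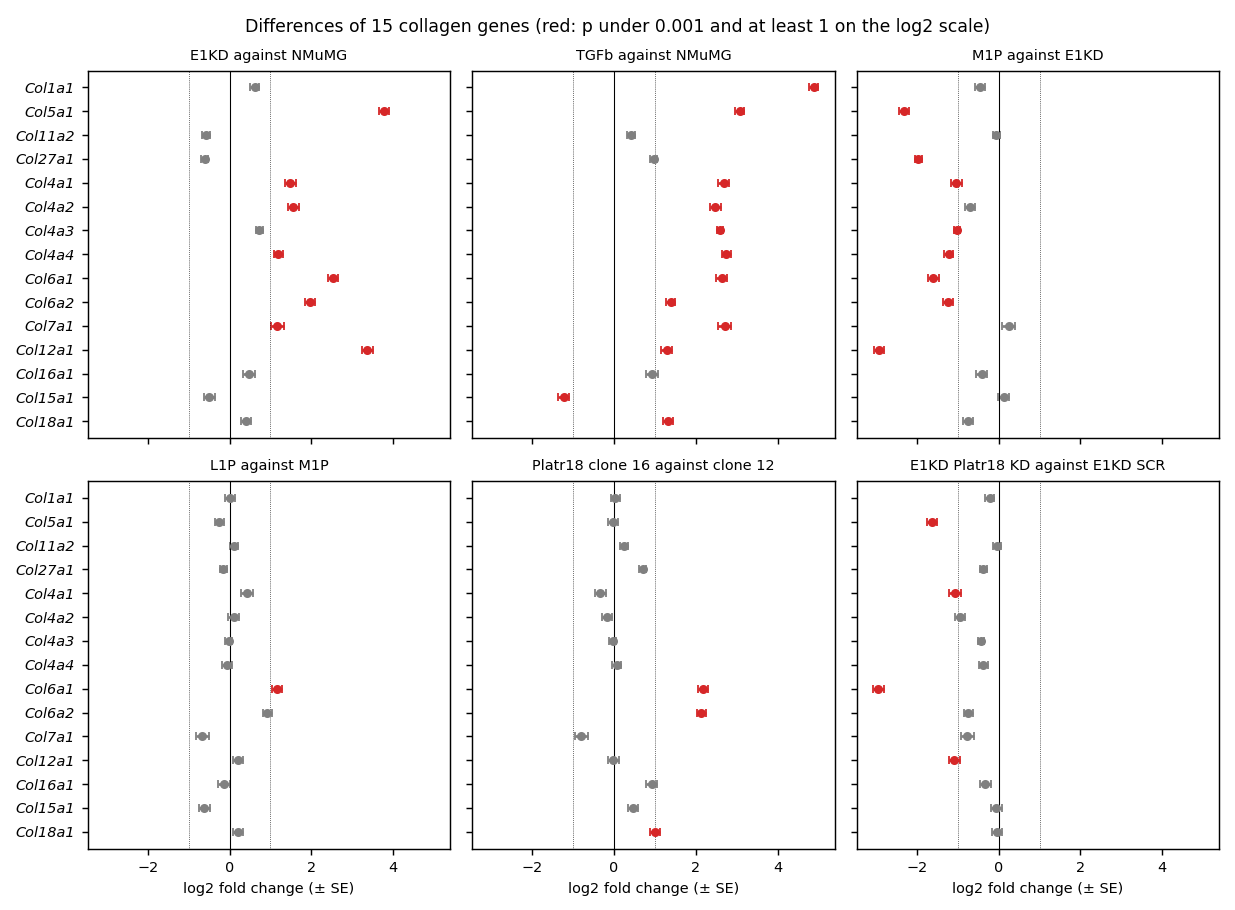
Log2 difference of each tested collagen gene (rows) with its standard error in 6 comparisons (panels), from the limma fit; red points were called, grey points were not, and dotted lines mark 1 and -1. In the TGFβ panel 11 red points lie on the right and Col15a1 on the left at -1.24; in the panels for M1P against E1KD and for Platr18 silencing all red points lie on the left.

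Among the fibrillar collagens, Col1a1, the main chain of type I collagen (chr11:94936224-94953042, plus strand), set the TGFβ-treated cells apart. It was 0.106 and 0.283 CPM in NMuMG, 30.1 and 38.4 CPM after TGFβ, 1.08 and 0.591 in E1KD, and between 0.319 and 0.350 in M1P and L1P. Outside the TGFβ-treated group no library of this kind exceeded 1.08 CPM. The rise after TGFβ was 176-fold (log2 difference 4.88 ± 0.12 SE, limma adjusted p = 1.6e-13), and E1KD cells were 41.0-fold below TGFβ-treated cells (-4.27 ± 0.12, limma adjusted p = 4.9e-13). In E1KD against NMuMG the difference was 0.61 on the log2 scale (4.30-fold), short of the size asked for a call. Its usual partner chain Col1a2 had 0 reads in both TGFβ-treated libraries, in which Col1a1 had 1805 and 2307 reads, and at most 3 reads in any library.

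Col5a1, the type V chain that nucleates and thins fibrils, moved with both treatments. It was 0.0355 CPM, about 2 reads, in NMuMG replicate 1 and listed at 0 in replicate 2, and it was 7.195 and 7.95 CPM after TGFβ and 15.02 and 11.2 in E1KD. M1P held 1.75 and 1.86 CPM and L1P 1.10 and 1.65 CPM, so that every library of the 4 other groups of this kind lay above both NMuMG libraries. The log2 difference was 3.78 ± 0.12 in E1KD (limma adjusted p = 1.9e-12) and 3.07 ± 0.12 after TGFβ (limma adjusted p = 1.7e-11), and the level fell 7.27-fold from E1KD to M1P (-2.32 ± 0.12, limma adjusted p = 1.3e-09). The partner chain Col5a2 stayed at or below 14 reads in every library. Col27a1, a fibrillar collagen of cartilage and epithelia, was the highest fibrillar chain per length of exon in every group. It was 97.5 and 90.8 CPM in NMuMG, 182 and 188 CPM after TGFβ, 66.7 and 56.2 in E1KD, 15.5 and 14.4 in M1P, and 13.6 and 13.1 in L1P. It was called for E1KD against TGFβ (3.01-fold lower, log2 difference -1.58 ± 0.09, limma adjusted p = 6.9e-10) and for M1P against E1KD (4.12-fold lower, -1.97 ± 0.09, limma adjusted p = 3.1e-10). Its difference of 0.97 after TGFβ stopped just short of the fold limit (limma adjusted p = 2.1e-07). Col11a2, a cartilage chain, was 0.673 and 0.867 CPM in NMuMG, 1.19 and 1.53 CPM after TGFβ, and 0.276 and 0.111 CPM in E1KD. It reached no call, although E1KD lay 3.99-fold below NMuMG (-0.57 ± 0.09, limma adjusted p = 0.00015).

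All 4 expressed type IV genes rose after TGFβ. Col4a1, which with Col4a2 builds the common basement membrane network, was 25.9 and 26.1 CPM in NMuMG, 165 and 180 CPM after TGFβ, 94.2 and 59.5 in E1KD, 35.7 and 36.5 in M1P, and 49.2 and 48.5 in L1P. Its head-to-head partner Col4a2 was 18.99 and 19.9 CPM in NMuMG, 106 and 120 CPM after TGFβ, 70.2 and 50.4 in E1KD, 36.1 and 36.5 in M1P, and 38.1 and 39.8 in L1P. For both genes the order TGFβ, E1KD, then NMuMG held without overlap between libraries. The rise after TGFβ was 6.62-fold for Col4a1 (2.68 ± 0.14, limma adjusted p = 7.9e-10) and 5.79-fold for Col4a2 (2.47 ± 0.13, limma adjusted p = 7.4e-10), and in E1KD it was 2.95-fold (1.49 ± 0.14, limma adjusted p = 7.2e-07) and 3.10-fold (1.56 ± 0.13, limma adjusted p = 1.7e-07). Col4a1 was also called lower in E1KD than after TGFβ (-1.19 ± 0.14) and lower in M1P than in E1KD (-1.03 ± 0.14). Each of those calls was lost when a single E1KD library was left out: without E1KD replicate 2 the first was -0.86, and without E1KD replicate 1 the second was -0.71. The call for M1P was also lost with libraries scaled by median-of-ratios (-0.81) or to equal sums (-0.86).

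Col4a3 and Col4a4, the chains of the specialised network of kidney and lung basement membranes, were rare and moved side by side. Col4a3 was 0.357 and 0.302 CPM in NMuMG, 7.41 and 6.56 CPM after TGFβ, 1.38 and 1.04 in E1KD, 0.0701 and 0.106 in M1P, and 0.0789 and 0.0583 in L1P. Col4a4 was 0.283 and 0.208 CPM in NMuMG, 6.89 and 7.80 CPM after TGFβ, 2.36 and 1.40 in E1KD, 0.192 and 0.248 in M1P, and 0.157 and 0.175 in L1P. After TGFβ they rose 21.2-fold (2.58 ± 0.08, limma adjusted p = 1.6e-12) and 29.9-fold (2.74 ± 0.11, limma adjusted p = 5.5e-11). In E1KD, Col4a4 rose 7.68-fold (1.19 ± 0.11, limma adjusted p = 7.5e-07; 0.95 and no longer called without E1KD replicate 1), while Col4a3, at 3.67-fold, differed by 0.73 and was not called. Both were called lower in M1P than in E1KD, by 13.7-fold for Col4a3 and 8.56-fold for Col4a4, with 10 and 25 reads in the 2 M1P libraries together; without E1KD replicate 1 neither difference reached the fold limit (-0.91 and -0.98), and that of Col4a3 was -0.99 without M1P replicate 1 and -0.90 with median-of-ratios scaling. Both were lower in E1KD than after TGFβ, by -1.86 ± 0.08 and -1.55 ± 0.11. A processed transcript on the strand opposite to Col4a3 reached 1.97 CPM and others opposite to Col5a1 0.787 CPM, and the use of strand in counting is not given in the sources used here.

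**Figure D3:**
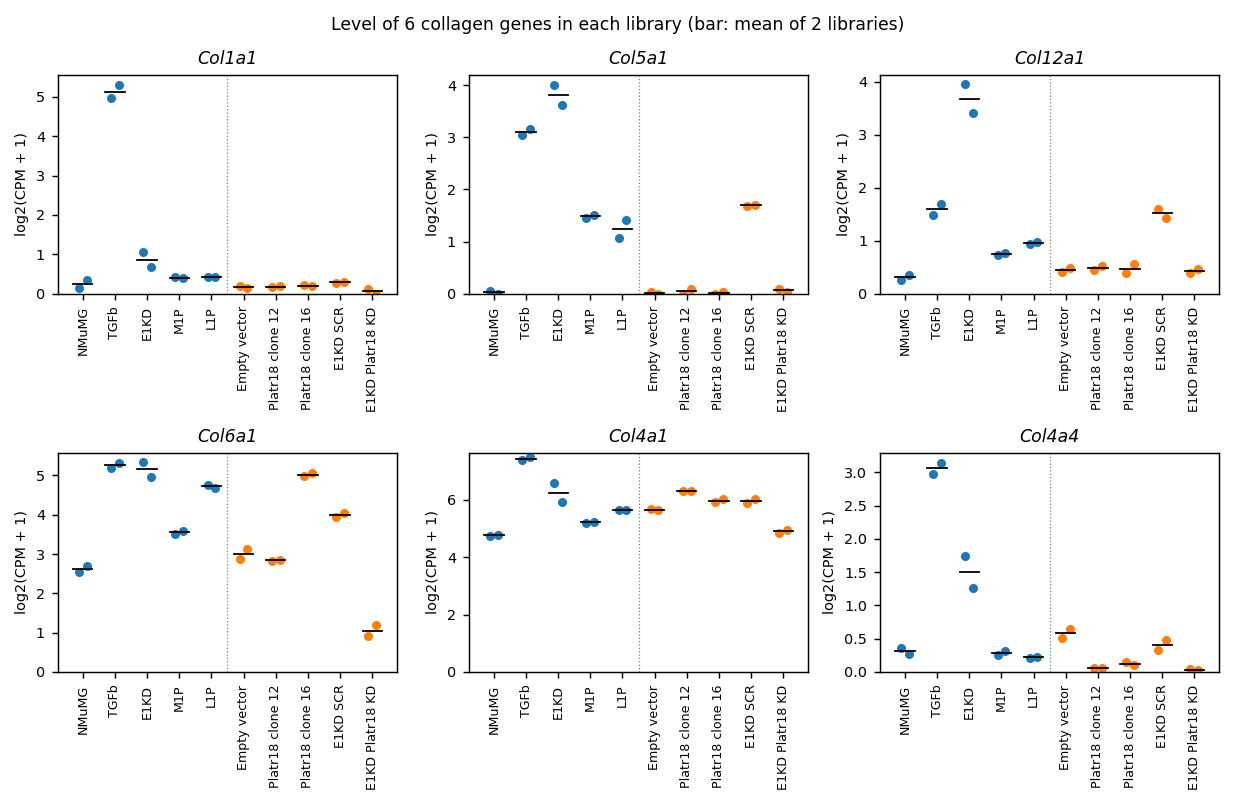
Level of Col1a1, Col5a1, Col12a1, Col6a1, Col4a1 and Col4a4 in each library as log2(CPM + 1), each point a library and each bar the mean of 2; blue is the first kind of library and orange the second, separated by the dotted line. Col1a1 was above 30 CPM in the TGFβ-treated group alone, whereas Col5a1 and Col12a1 peaked in E1KD, at up to 15.02 and 14.4 CPM.

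The type VI genes Col6a1 and Col6a2 rose under both treatments, fell in M1P and were higher again in L1P. Col6a1 was 4.87 and 5.49 CPM in NMuMG, 35.7 and 38.7 CPM after TGFβ, 39.9 and 29.9 in E1KD, 10.5 and 11.1 in M1P, and 25.9 and 24.9 in L1P. Col6a2 was 0.425 and 0.340 CPM in NMuMG, 2.32 and 2.90 CPM after TGFβ, 5.08 and 3.83 in E1KD, 1.20 and 1.38 in M1P, and 3.47 and 3.22 in L1P. The TGFβ-treated and E1KD groups overlapped for Col6a1 and did not overlap for Col6a2. In E1KD the rise was 6.74-fold for Col6a1 (2.53 ± 0.13, limma adjusted p = 5.0e-10) and 11.7-fold for Col6a2 (1.97 ± 0.11, limma adjusted p = 2.9e-09), and after TGFβ it was 7.19-fold (2.63 ± 0.13) and 6.83-fold (1.38 ± 0.11). From E1KD to M1P the genes fell by 1.59 and 1.24 on the log2 scale. Col6a1 was the single collagen gene called between L1P and M1P (2.35-fold higher in L1P, 1.16 ± 0.13, limma adjusted p = 1.5e-05), and Col6a2 differed in the same direction by 0.92 (limma adjusted p = 5.6e-05). The other partner chain Col6a3 never exceeded 25 reads in a library.

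Col7a1, the anchoring fibril collagen, was 1.03 and 1.17 CPM in NMuMG, 10.98 and 14.6 CPM after TGFβ, 4.685 and 2.88 in E1KD, 5.10 and 4.06 in M1P, and 2.26 and 2.76 in L1P. It rose 11.6-fold after TGFβ (2.70 ± 0.16, limma adjusted p = 2.3e-09) and 3.45-fold in E1KD (1.16 ± 0.16, limma adjusted p = 2.5e-05; 0.89 and no longer called without E1KD replicate 1, and 0.99 with median-of-ratios scaling). It was also lower in E1KD than after TGFβ by 1.54 ± 0.16. It was not called between M1P and E1KD, where it differed by 0.24 and the groups overlapped.

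The FACIT gene Col12a1, whose product binds along type I fibrils, was highest in E1KD and not after TGFβ. It was 0.195 and 0.283 CPM in NMuMG, 1.80 and 2.23 CPM after TGFβ, 14.4 and 9.63 in E1KD, 0.663 and 0.709 in M1P, and 0.922 and 0.971 in L1P. Both E1KD libraries lay above every other library of this kind. The rise was 50.4-fold in E1KD (3.37 ± 0.13, limma adjusted p = 3.3e-11) and 8.45-fold after TGFβ (1.28 ± 0.13, limma adjusted p = 1.1e-06). Tested directly, E1KD exceeded TGFβ 5.96-fold (2.09 ± 0.13, limma adjusted p = 3.6e-09), which no other collagen gene did at the call rule, and M1P was 17.5-fold below E1KD (-2.92 ± 0.13, limma adjusted p = 4.4e-10). Col16a1, the other FACIT gene tested, was 1.72 and 1.78 CPM after TGFβ against 0.390 and 0.509 CPM in NMuMG, a difference of 0.93 that was not called.

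The multiplexins went in opposite directions after TGFβ. Col15a1 was 2.39 and 2.49 CPM in NMuMG, 0.434 and 0.483 CPM after TGFβ, 1.81 and 1.13 in E1KD, 1.52 and 1.81 in M1P, and 0.883 and 0.602 in L1P. It was the only collagen gene called lower after TGFβ (5.32-fold, -1.24 ± 0.13, limma adjusted p = 1.2e-06). Col18a1 was 111 and 107 CPM in NMuMG, 256 and 288 CPM after TGFβ, 169 and 124 in E1KD, and between 84.6 and 98.1 in M1P and L1P, and its rise after TGFβ was 2.50-fold (1.31 ± 0.12, limma adjusted p = 4.8e-07). The annotation of Col18a1 overlaps Slc19a1 and a processed pseudogene on the opposite strand, which reached 24.1 and 23.1 CPM.

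The second kind of library holds another pair of groups with and without the shRNA against hnRNP E1, in which the collagen genes were compared in the same way. Between E1KD SCR and Empty vector 2 collagen genes were called higher and 0 lower, against 2.91% and 3.07% of all tested genes (5.98% together). Col5a1 was 0.0275 CPM (about 2 reads) and listed at 0 in Empty vector against 2.22 and 2.26 CPM in E1KD SCR (1.68 ± 0.12, limma adjusted p = 3.0e-08). Col12a1 was 0.329 and 0.391 CPM against 2.02 and 1.70 CPM, or 5.16-fold (1.07 ± 0.13, limma adjusted p = 1.4e-05; 0.99 without E1KD SCR replicate 1). Col6a1, at 6.40 and 7.68 CPM against 14.4 and 15.5 CPM, differed by 0.99 (limma adjusted p = 1.8e-05), and Col4a2, at 13.9 and 12.6 CPM against 18.4 and 21.97 CPM, by 0.56 (limma adjusted p = 0.0029). Col4a1 (0.31), Col6a2 (0.13), Col7a1 (0.07) and Col4a4 (-0.17) had limma adjusted p-values of 0.096 to 0.76.

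The difference between these 2 silencing effects was tested in the same limma fit, and shares no library between its arms. It was called for 7 collagen genes, all with the smaller log2(CPM + 1) difference in the second kind, against 2.57% of all tested genes in that direction and 0.947% in the other (3.51% together). The values were -2.30 ± 0.19 for Col12a1, -2.10 ± 0.16 for Col5a1, -1.84 ± 0.16 for Col6a2, -1.54 ± 0.18 for Col6a1, -1.36 ± 0.16 for Col4a4, -1.18 ± 0.20 for Col4a1 and -1.09 ± 0.22 for Col7a1 (limma adjusted p from 4.3e-07 to 0.0030). For Col5a1 the NMuMG and Empty vector groups had 2 reads each, so its value rests on the levels in E1KD and E1KD SCR. As a ratio of summed reads it rose 715-fold in the first kind (95% interval from read counts 197 to 5906). In the second kind it rose 159-fold (43.6 to 1317), and the 2 intervals overlap. With median-of-ratios scaling 5 were called, without Col4a1 (-0.97) and Col7a1 (-0.92), and the share of higher genes among all calls went from 27% to 43.6%. Without E1KD replicate 1 those of Col4a1 and Col7a1 were -0.85 and -0.81 and were not called, and Col7a1 also lost its call, at -1.03 to -1.09, without E1KD SCR replicate 1, NMuMG replicate 1 or either Empty vector library. Pcbp1 itself fell 19.4-fold in the first kind and 9.59-fold in the second, and Platr18 was 12.1-fold higher in E1KD than in NMuMG (16.2 against 1.35 CPM) but 3.01 against 3.37 CPM in E1KD SCR and Empty vector. The vectors, the kind of library and the silencing of hnRNP E1 cannot be told apart in this contrast.

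**Figure D4:**
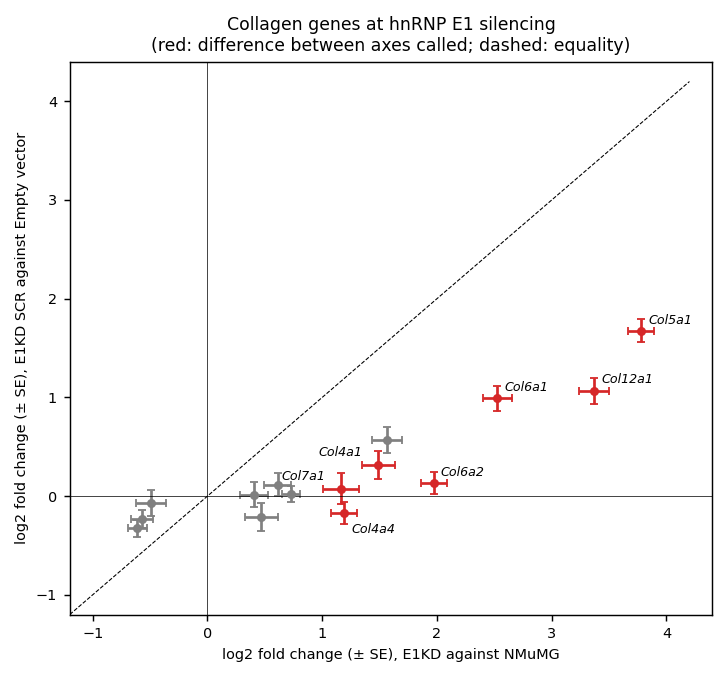
Log2 difference with its standard error at hnRNP E1 silencing for the 15 tested collagen genes in the first kind of library (x axis, E1KD against NMuMG) and in the second kind (y axis, E1KD SCR against Empty vector); red marks the 7 genes for which the difference between the axes was called, and the dashed line is equality. All 7 lie below the line, Col5a1 at 3.78 and 1.68 and Col12a1 at 3.37 and 1.07.

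After Platr18 silencing in E1KD cells 4 collagen genes were called lower and 0 higher, against 0.994% and 0.485% of all tested genes (1.48% together). Col6a1 was 14.4 and 15.5 CPM in E1KD SCR and 0.889 and 1.27 CPM in E1KD Platr18 KD, a 13.8-fold fall (-2.94 ± 0.13, limma adjusted p = 1.1e-09) to the lowest levels of this gene in its kind of library. Col5a1 was 2.22 and 2.26 CPM against 0.0680 and 0.0205 CPM, or 50.7-fold lower (-1.63 ± 0.12, limma adjusted p = 1.8e-07), where the Empty vector and clone libraries reached at most 0.0615 CPM. Col12a1 was 2.02 and 1.70 CPM against 0.312 and 0.388 CPM (5.31-fold lower, -1.08 ± 0.13, limma adjusted p = 4.2e-05), and Col4a1 was 58.7 and 64.7 CPM against 27.9 and 30.1 CPM (2.13-fold lower, -1.06 ± 0.14, limma adjusted p = 1.0e-04; -0.99 without E1KD SCR replicate 2). Col4a2, at 18.4 and 21.97 CPM against 9.60 and 10.4 CPM, missed the fold limit at -0.94 (limma adjusted p = 0.00014), and so did Col6a2, at 0.772 and 0.715 CPM against 0.0408 and 0.0410 CPM in the silenced libraries, an 18.2-fold fall, with -0.74 (limma adjusted p = 0.00033). Col4a3, at 0.460 and 0.286 CPM against 0.0272 and 0.0137 CPM, was 18.3-fold lower (-0.43, limma adjusted p = 0.0014), on 6 reads in the silenced libraries against 52. Col4a4, at 0.257 and 0.397 CPM against 0.0272 and 0.0205 CPM, was 13.8-fold lower (-0.37, limma adjusted p = 0.035), on 7 reads against 44. With libraries scaled to equal sums Col12a1 (-0.99) and Col4a1 (-0.9988) fell short of the call and 2 genes were left, while with 0.1 in place of 1 added to the CPM 9 were called. Of the 15 tested genes, 10 had a limma adjusted p under 0.05 and all 10 were lower after silencing. The share of all tested genes under that rule, or with 0.1 added, is not given here, so these counts have no background beside them. Col18a1 (72.3 and 82.8 against 74.6 and 75.8 CPM) and Col15a1 (1.79 and 1.91 against 1.55 and 1.94 CPM) overlapped between the groups.

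Platr18 overexpression gave no collagen gene that was called over both clones, against 1.46% of all tested genes, 0.427% higher and 1.03% lower; 10 of the 15 had an unadjusted p under 0.05 by the limma test and 9 an adjusted p under 0.05, and with 0.1 in place of 1 added to the CPM 5 were called. The shares of all tested genes under these other rules are not given here. The clones differed from each other. Col6a1 was 6.40 and 7.68 CPM with the empty vector, 6.09 and 6.23 CPM in clone 12, and 30.6 and 32.2 CPM in clone 16, and Col6a2 was 0.644 and 0.536 CPM, 0.565 and 0.307 CPM, and 4.97 and 5.61 CPM in the same order. Clone 16 thus stood alone for both type VI genes. Between clone 16 and clone 12, 3 collagen genes were called higher and 0 lower, against 2.71% and 1.68% of all tested genes (4.38% together): Col6a1 (5.10-fold, 2.18 ± 0.13, limma adjusted p = 7.4e-09), Col6a2 (12.2-fold, 2.14 ± 0.11, limma adjusted p = 3.3e-09) and Col18a1 (2.02-fold, 1.01 ± 0.12, limma adjusted p = 1.7e-05). Col18a1 was 81.3 and 72.2 CPM with the empty vector, 67.0 and 78.7 CPM in clone 12, and 139 and 155 CPM in clone 16, and its call was lost without clone 12 replicate 1 (0.89) or clone 16 replicate 2 (0.93), and with libraries scaled by median-of-ratios (0.93) or to equal sums (0.98). Against the empty vector, clone 16 alone had 2 genes called, Col6a1 (2.02 ± 0.13) and Col6a2 (1.98 ± 0.11), where 1.78% of all tested genes were called, 0.772% higher and 1.01% lower. Clone 12 alone had 1 gene called, against 3.65% of all tested genes, 1.13% higher and 2.52% lower. It was Col15a1, at 2.26 and 1.74 CPM against 0.475 and 0.322 CPM (5.01-fold lower, -1.10 ± 0.13, limma adjusted p = 1.2e-05). In both clones Col4a4 (0.0447 to 0.111 CPM against 0.425 and 0.565 CPM) and Col4a3 (0.0140 to 0.0892 CPM against 0.356 and 0.348 CPM) lay below both Empty vector libraries, with pooled differences of -0.48 (7.30-fold lower) and -0.36 (6.43-fold lower; limma adjusted p = 0.0021 and 0.0011), and Col11a2 lay above them (0.877 to 1.37 CPM against 0.438 and 0.377 CPM, 0.55, limma adjusted p = 0.00016). The type IV pair Col4a1 and Col4a2 lay above both Empty vector libraries in every clone library, Col4a1 at 77.4 and 79.1 CPM in clone 12 and 59.0 and 64.8 CPM in clone 16 against 50.2 and 48.7 CPM (0.48, limma adjusted p = 0.0089), and Col4a2 at 21.9 and 24.4 CPM and 19.1 and 21.7 CPM against 13.9 and 12.6 CPM (0.67, limma adjusted p = 0.00048). Col7a1 was 3.05 and 3.497 CPM in clone 12 and 1.41 and 1.47 CPM in clone 16, on either side of the 1.77 CPM of both Empty vector libraries, and differed between the clones by -0.81 (limma adjusted p = 0.00092). Platr18 itself was lower in clone 16 (813 and 819.8 CPM) than in clone 12 (3092 and 3096 CPM).

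The ratio between partner chains differed between the kinds of library and, for type VI, between groups. Per kb of exon, Col4a1 stood at 0.877 to 1.38 times Col4a2 in the 10 libraries of the first kind and at 2.58 to 3.42 times in the 10 of the second. Within the first kind the ratio was lowest in M1P (0.877 and 0.887) and highest after TGFβ (1.38 and 1.34). Col6a1 was 21.8 and 30.7 times Col6a2 in NMuMG, 29.2 and 25.4 times after TGFβ, 14.9 in both E1KD libraries and 14.2 to 16.5 in M1P and L1P. In the second kind it was 11.7 and 10.9 in clone 16 against 20.51 and 38.6 in clone 12. After Platr18 silencing it was 41.4 and 59.1, on 6 reads of Col6a2 in each library. In E1KD SCR it was 35.4 and 41.2, on 57 and 45 reads of Col6a2. For Col4a3 over Col4a4 the ratio ran from 0.388 to 1.55 in the 9 libraries of the first kind with over 3 reads of each gene. Exon length was that of all annotated exons of a gene merged, 4380 bases for Col6a1 and 8326 for Col6a2. The ratios therefore depend on the annotation, and which transcripts were in use was not tested. These ratios are descriptions, and whether the 5′ overlap of Col4a1 and Col4a2 takes part in theirs was not tested.

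**Figure D5:**
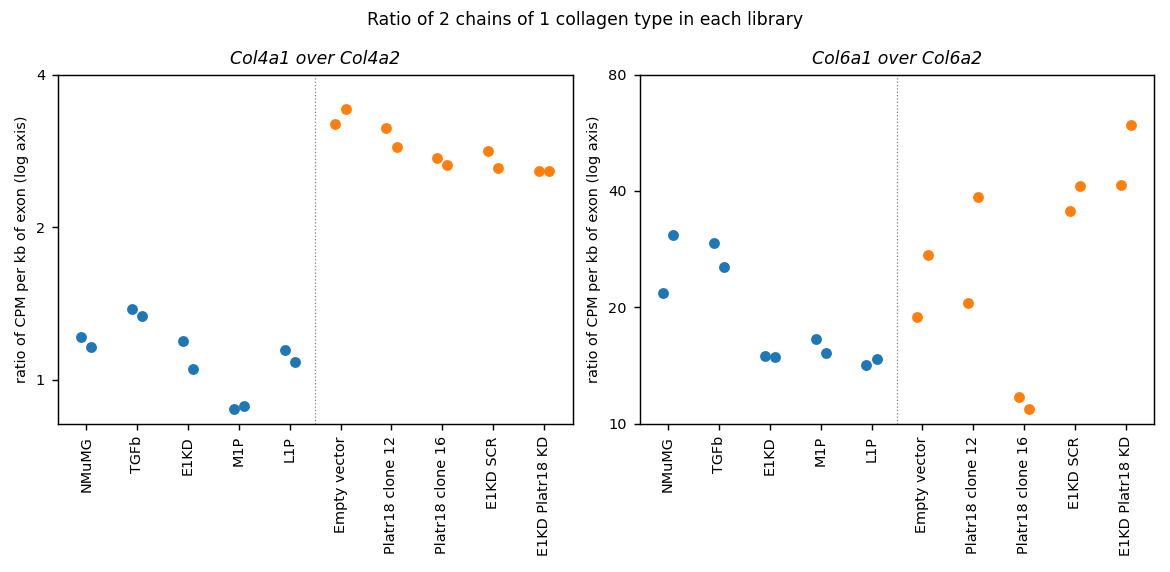
Ratio of CPM per kb of exon between partner chains, Col4a1 over Col4a2 (left) and Col6a1 over Col6a2 (right), on a log axis; each point is a library, blue for the first kind and orange for the second. The left panel splits by kind of library, 0.877 to 1.38 against 2.58 to 3.42, while in the right panel clone 16 is lowest, at 11.7 and 10.9.

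Genes that build collagen were listed separately: 20 for folding and modification, 8 for secretion, and 13 for processing and crosslinking, of which 31 were tested. In E1KD 9 of the 31 were called higher than in NMuMG and 0 lower, and after TGFβ 11 were higher and 1 lower, beside the shares of all genes given above for these comparisons. Serpinh1 encodes HSP47, the chaperone of the collagen triple helix in the endoplasmic reticulum. It was 0.0355 and 0.0944 CPM in NMuMG, 1.77 and 2.30 CPM after TGFβ, 71.5 and 61.2 in E1KD, 203 and 206 in M1P, and 151 and 149 in L1P. In the second kind it was 1.25 and 0.898 CPM in Empty vector, listed at 0 in all 4 clone libraries, 18.7 and 21.7 CPM in E1KD SCR, and 0.380 and 0.252 CPM after Platr18 silencing. M1P cells thus had 3.08 times the Serpinh1 of E1KD cells (1.61 ± 0.11, limma adjusted p = 5.3e-08), while 8 collagen genes were lower, and the TGFβ-treated cells, with the highest collagen sum, had 32.6 times less Serpinh1 than E1KD cells (limma log2 difference 4.47 ± 0.11). After Platr18 silencing it was 63.9-fold lower (-4.01 ± 0.11, limma adjusted p = 1.7e-11).

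Several of these genes were called apart between the treatments. In E1KD the largest rises after Serpinh1 were those of the peroxidase Pxdn, which crosslinks type IV collagen (listed at 0 in NMuMG, 12.6 and 10.98 CPM in E1KD), the procollagen C-proteinase enhancer Pcolce2 (3.19 on the log2 scale), the prolyl 3-hydroxylase P3h2 (2.94), the lysyl oxidase Loxl4 (2.84) and the enhancer Pcolce (2.40). After TGFβ they were those of the procollagen C-proteinase Bmp1 (10.0-fold, 3.23), Pxdn (2.39), the crosslinking enzyme Loxl2 (4.91-fold, 2.28), the lysyl hydroxylase Plod2 (4.84-fold, 2.21), Loxl1 (1.77) and Pcolce2 (1.75), while Pcolce fell 3.18-fold. Tested directly, Pcolce, Loxl4, P3h2, Pcolce2, Pxdn, Tmem38b and Serpinh1 were higher in E1KD, and Bmp1, Loxl2, Plod2, Fkbp14, Creb3l2, Loxl1, P4ha2 and Colgalt1 were higher after TGFβ. These were 7 and 8 of the 31, against 17.2% and 6.17% of all tested genes. From E1KD to M1P, Pxdn (2.07), Serpinh1 (1.61) and Plod2 (1.19) rose and P3h2 fell by 1.24. Of all tested genes 1.16% were called higher and 2.43% lower in M1P. After Platr18 silencing Serpinh1, Pcolce (-1.09) and Pcolce2 (-1.09) were called lower, and 0 of the 31 genes were called higher by the limma test, where 0.994% of all tested genes were called lower and 0.485% higher.

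Of 10 collagen receptors 5 were tested. In E1KD and after TGFβ 1 of the 5 was called higher and 1 lower than in NMuMG. Of all tested genes 9.44% and 13.5% were called there. In M1P 2 were called higher than in E1KD and 0 lower (3.59% of all tested genes). In L1P 0 were called higher and 1 lower than in M1P (1.21%). After Platr18 silencing it was 0 and 1 (1.48%). For E1KD SCR against Empty vector (5.98%) and clone 16 against clone 12 (4.38%) it was 1 and 1. Ddr2, a tyrosine kinase that fibrillar collagen activates, was 5.59 and 4.73 CPM in NMuMG, 34.0 and 26.7 in E1KD, 107 and 110 in M1P, and 129.8 and 128 in L1P, and was called higher in E1KD (5.88-fold) and in M1P (3.58-fold over E1KD). After Platr18 silencing it was 8.46-fold lower (1.79 and 1.33 against 13.7 and 12.7 CPM). With Platr18 overexpressed, Ddr2 was 21.6 and 21.2 CPM in clone 12 but 3.49 and 3.78 CPM in clone 16, against 4.62 and 4.79 CPM with the empty vector. Itga2, the alpha chain of a collagen-binding integrin, fell 2.21-fold in E1KD and 3.21-fold in E1KD SCR, its partner Itgb1 rose 3.33-fold after TGFβ, and Itga1, the alpha chain of another, fell 8.74-fold after TGFβ. Itga2 was also called higher in M1P (167 and 162 CPM) than in E1KD (68.3 and 56.5 CPM), and lower in L1P (73.6 and 73.3 CPM) than in M1P. It was called higher in clone 16 (185 and 188 CPM) than in clone 12 (84.2 and 78.8 CPM). Of 8 collagen-degrading enzymes 4 were tested. Against NMuMG, 2 of the 4 were called higher after TGFβ and 1 in E1KD, and 0 lower in either. After Platr18 silencing and over both clones 1 was called higher and 0 lower, against 1.48% and 1.46% of all tested genes. After TGFβ, Mmp14 (4.35-fold, 124 against 28.5 CPM) and Mmp9 (5.73 and 6.88 CPM, against at most 0.0178 CPM in NMuMG) were called higher, in E1KD it was Mmp2 (listed at 0 in NMuMG, 3.19 and 2.37 CPM in E1KD), and the collagenase Mmp13 was 4.47-fold higher after Platr18 silencing and was called higher in the overexpressing clones as well (60.3 against 21.8 CPM).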

How the data were processed

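The authors deposited 1 table of CPM values with 20 library columns, made per the labels and the methods of the study with Bowtie2 2.2.5 on GRCm38.p6, the M18 annotation and Partek quantification by expectation maximization; 0.0001 had been added to every value, and the sums over genes, 547497 to 797257 CPM, show that the divisor held more reads than those of genes. Raw counts were not used here: between 92.1% and 98.1% of values below about 20 reads lay within 0.05 of a whole multiple of 1 read (92.1% to 93.1% in the first kind of library), so reads are given as approximate and no count model was run.

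The 17106 of 54986 genes that reached 1 CPM in 2 or more libraries were tested on log2(CPM + 1) with limma 3.58.1 in R 4.3.3 (lmFit and eBayes with trend), in 1 fit with 10 group means and 10 residual degrees of freedom; adjusted p-values are Benjamini-Hochberg over all tested genes. Calls needed an unadjusted p under 0.001 and a log2 difference of at least 1. Exon lengths are those of the merged exons of all annotated transcripts of a gene in GENCODE M21. Its gene starts equalled those of the table for 44 of 44 members. Table ends were 1 base higher and are printed as in GENCODE. Alternatives are in the closing section. Values are given by library for every member called in at least 1 of 9 comparisons; pathway genes are at most the 6 with the largest change in a comparison, and directions for the rest. The topic of collagen genes, whose members follow from a rule on names, and the pathway lists (folding and modification, secretion, processing and crosslinking, receptors, degradation) and marker lists were chosen with earlier results of these data known. Summed markers were 0.0183 to 13.2 CPM for 8 fibroblast genes, 1333 to 4000.1 CPM for 8 epithelial genes, 1.45 to 6.85 CPM for 5 immune genes, 0.0194 to 0.542 CPM for 5 endothelial genes, at most 0.869 CPM for 3 adipocyte, 3.10 CPM for 3 pericyte and muscle, 0.0396 CPM for 2 lung epithelium and 9.75 CPM for 3 Schwann cell genes; their part in the results was not tested.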

Additional observations from a re-analysis of the deposited data

Results flagged for a closer look

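In 2 cases collagen results differed between groups under the same contrast. The first is hnRNP E1 silencing in the 2 kinds of library, where the limma test of the difference called Col12a1 (-2.30), Col5a1 (-2.10), Col6a2 (-1.84), Col6a1 (-1.54), Col4a4 (-1.36), Col4a1 (-1.18) and Col7a1 (-1.09), each as the log2 difference in the second kind minus that in the first. The other is Platr18 overexpression, where clone 16 exceeded clone 12 in Col6a1 (2.18), Col6a2 (2.14) and Col18a1 (1.01). For Col5a1 the NMuMG and Empty vector groups had 2 reads each, and the intervals from read counts of its ratios in the 2 kinds overlapped. Both contrasts hold 2 libraries per group, and the part of the vectors, of the clones and of the kind of library was not tested.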

How the results depend on the processing

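Of 775 repeats of the 52 called gene differences under other settings, 730 kept the call, 45 lost it and 0 changed direction. Differences of genes that a setting no longer tested are not among the 775, and a mean of 5 CPM repeated only 19 of the 52. Both rules on the adjusted p were read from the same fit, kept all 52 and are no independent repeat. Leaving out a library was run for libraries of the compared groups only, with the lone library assumed to vary like the others. Rescaling moved the median of all genes in E1KD against NMuMG from 0.17 to 0.015 (median-of-ratios factors) or 0.039 (equal sums) and the share of higher calls from 68.3% to 51.2% or 55.0%; for M1P against E1KD that share went from 32.2% to 51.6% or 48.5%, for E1KD against TGFβ from 73.6% to 50.3% or 63.1%, for TGFβ against NMuMG from 43.3% to 53.5% or 43.6%, and for the difference of silencing effects from 27% to 43.6% or 41.2%. Equal sums left 2 collagen genes called at Platr18 silencing. A pseudocount of 0.1 called 3 for L1P against M1P, 5 for the clones against Empty vector, 6 between clones and 9 at Platr18 silencing. Requiring a mean of 5 CPM, which tests fewer genes, left 3 for E1KD, 4 for TGFβ, 2 for E1KD against TGFβ, 3 for M1P, 2 for Platr18 silencing, 0 for E1KD SCR and 2 for the difference of silencing effects. Fitting the compared groups alone, with fewer libraries, left 4, 3 and 4 for E1KD against NMuMG, E1KD against TGFβ and M1P against E1KD. An adjusted p under 0.05 without a fold limit called 15 for E1KD, 14 for E1KD against TGFβ, 4 for L1P, 9 for the clones, 7 between clones, 10 at Platr18 silencing and 5 for E1KD SCR. For that rule, the pseudocount of 0.1 and the mean of 5 CPM, the shares of all tested genes are not given here. Clone 12 alone gave 1 and clone 16 alone 2. Without single libraries the counts ranged from 6 to 8 (E1KD), 12 to 13 (TGFβ), 6 to 10 (E1KD against TGFβ), 5 to 8 (M1P, 5 without E1KD replicate 1), 1 to 1 (L1P), 0 to 1 (clones), 2 to 4 (between clones), 3 to 5 (Platr18 silencing), 2 to 3 (E1KD SCR) and 5 to 8 (difference of silencing effects). Apart from these settings the causes were not tested.

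Replicate numbers were shared between groups, and same-numbered libraries deviated together with correlations of -0.395 to 0.287. With 2 libraries per group, these values cannot show whether a number stands for a shared culture or run. A fit with the replicate number as a block gave 8 called collagen genes for E1KD against NMuMG and 12 for TGFβ, and changed no collagen call; crossing the numbers of E1KD or of clone 16, chosen after seeing the data, left 7 for E1KD against TGFβ and 0 for the clones. A fit to the same kind of library alone could not be made for the difference of silencing effects.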
